A study of Mus musculus with 6 samples.

Results

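A group of 8 small nucleolar RNA (snoRNA) genes of pre-rRNA processing were examined in small RNA libraries of Treg cells, namely Snord118 (U8), Snord13 (U13), Snord22 (U22), Snora73a and Snora73b (U17) and Snord14c, Snord14d and Snord14e (U14). The genes were taken from a fixed list by name and found by Ensembl identifier, and all 8 have an entry among the 54547 gene entries of each library, of which 1507 are annotated as snoRNA genes. Only 3 of the 8, Snord13, Snord118 and Snora73b, received 10 or more counts over the 6 libraries. Treg cells had been sorted from thymi of mice aged 7 weeks, on a background labelled C5BL6/N, from wild type (WT) animals and from animals labelled miR-181a1/b1 -/- (miR-181a/b-1-/-, called knockout below), with 3 libraries for each genotype. According to the study's methods each library came from a sort of pooled thymi, so a library is a pool of animals and not an individual. Since the labels do not trace the libraries to separate animals, p-values measure the spread between libraries. The series asked whether small RNAs other than the deleted pair differ between Treg cells of both genotypes.

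Most snoRNAs guide chemical modification of ribosomal RNA, but a small subset is needed for the cutting and folding steps by which the long pre-rRNA becomes mature rRNA. U8 is a box C/D snoRNA required for maturation of the large-subunit rRNAs. U13, U22 and U14 are box C/D snoRNAs that act in maturation of the small-subunit rRNA, and U17 is a box H/ACA snoRNA that acts in the same branch. In mammals U8 and U13 are transcribed from genes of their own, whereas U22, U17 and U14 are released from introns of host genes.

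The sequence of Snord118, from the GENCODE vM21 transcripts on GRCm38, is shown for the short motifs by which box C/D snoRNAs are recognised. Capitals mark TGATGA, the core of box C, and the last CTGA, box D.
Snord118: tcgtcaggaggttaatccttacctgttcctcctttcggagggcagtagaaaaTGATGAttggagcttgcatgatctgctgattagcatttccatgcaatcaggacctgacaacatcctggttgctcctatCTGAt
In Snord118, of 135 bases, TGATGA begins at base 53 and CTGA ends 1 base before the 3′ end. On the RNA strand, TGATGA occurs anywhere in 26.1% of the 1507 annotated snoRNA transcripts and CTGA lies within the last 10 bases of 26.9%, and 20.2% hold both. Snord14c, Snord14d and Snord14e hold both as well, with CTGA 4 bases before the end, while Snord22 holds CTGA 5 bases before its end but not the letters TGATGA.

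Snora73a and Snora73b are near-identical copies of U17, and Snord14c and Snord14d of U14. They are shown because a read that does not cover a differing base has no unique alignment. Capitals mark the bases at which a copy differs from the other copy of its pair.
Snora73b: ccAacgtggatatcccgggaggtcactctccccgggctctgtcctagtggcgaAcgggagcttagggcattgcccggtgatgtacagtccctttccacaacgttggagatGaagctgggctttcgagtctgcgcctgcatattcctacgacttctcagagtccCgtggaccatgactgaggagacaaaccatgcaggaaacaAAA
Snora73a: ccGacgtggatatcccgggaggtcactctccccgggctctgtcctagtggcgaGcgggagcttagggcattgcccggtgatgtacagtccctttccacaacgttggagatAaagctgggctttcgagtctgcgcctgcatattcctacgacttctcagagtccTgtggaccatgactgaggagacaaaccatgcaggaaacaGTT
Snord14c: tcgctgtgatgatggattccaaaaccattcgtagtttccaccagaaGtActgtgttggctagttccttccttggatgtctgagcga
Snord14d: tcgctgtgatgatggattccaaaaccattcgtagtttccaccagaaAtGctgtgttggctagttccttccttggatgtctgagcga
The U17 copies have 205 bases each and are identical at 198 of them (96.6%). Counted from the 5′ end of Snora73b, the substitutions are A3G, A54G, G111A, C164T, A203G, A204T and A205T, and the longest identical run is 56 bases. Both end with ACA followed by 3 bases, the box ACA of the H/ACA class, an ending found in 18.3% of the annotated snoRNA transcripts. Snord14c and Snord14d differ at 2 of 86 bases (G47A and A49G, counted from the 5′ end of Snord14c) and share a run of 46 bases. Snord14e has 90 bases and shares a longest run of 19 bases with either of them.

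Counts on genes totalled 168293 to 307840 in a library, and 41.9% to 45.8% of them fell on genes of the snoRNA biotype. Markers of Treg cells (Foxp3, Il2ra, Ctla4, Ikzf2, Tnfrsf18 and Tnfrsf4) together had 205 to 237 counts for WT and 179 to 280 in the knockout libraries, although Ctla4 had 1 count in all. The summed markers of double-positive thymocytes had 0 to 4 counts in a library, those of myeloid cells 0 to 4, those of B cells 8 to 13 and those of erythroid cells 0, while the T cell markers had 184 to 293. Of the deleted genes, Mir181a-1 had 1 count in WT replicate 2 and 0 elsewhere, and Mir181b-1 had 0 in all 6 libraries, so the genotype labels could not be checked from them.

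Whether a snoRNA of this group was counted at all went with its place in the annotation. Snord13 (ENSMUSG00000088252.1) and Snord118 (ENSMUSG00000064899.1, chr11:69073427-69073561, plus strand) overlap no exon of another gene, and they had 9690 and 2898 counts over the 6 libraries. Snord22 (ENSMUSG00000065087.1, chr19:8725866-8725991, plus strand) had 0 counts in every library. Its whole length of 126 bases lies within exons of retained-intron transcripts of its host gene Snhg1 on the same strand.

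The U14 copies lie in introns of Hspa8, the gene of a constitutive heat shock chaperone, on chromosome 9 and on its strand. Snord14c (ENSMUSG00000096263.1) spans chr9:40803583-40803668, Snord14d (ENSMUSG00000095118.1) chr9:40803995-40804080 and Snord14e (ENSMUSG00000064791.1) chr9:40804748-40804837. Each of them lies wholly within a retained-intron transcript of Hspa8, and each had 0 counts in all 6 libraries.

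The U17 copies lie in introns of Snhg3, a noncoding host gene that overlaps the Rcc1 gene on the minus strand of chromosome 4. Snora73b (ENSMUSG00000065353.1, chr4:132352322-132352526) touches no exon on its own strand, and it had 2251 counts. Its 205 bases do lie within an exon of Gm17300, a lincRNA gene on the opposite strand, which had 0 counts. Snora73a (ENSMUSG00000064387.1, chr4:132352775-132352979) has 159 bases within a Snhg3 exon on its strand and 175 within Gm17300 exons, and it had 1 count, in WT replicate 2. The remaining 46 bases of Snora73a, at its 5′ end, hold 1 of the 7 positions that set it apart from Snora73b.

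**Figure D1:**
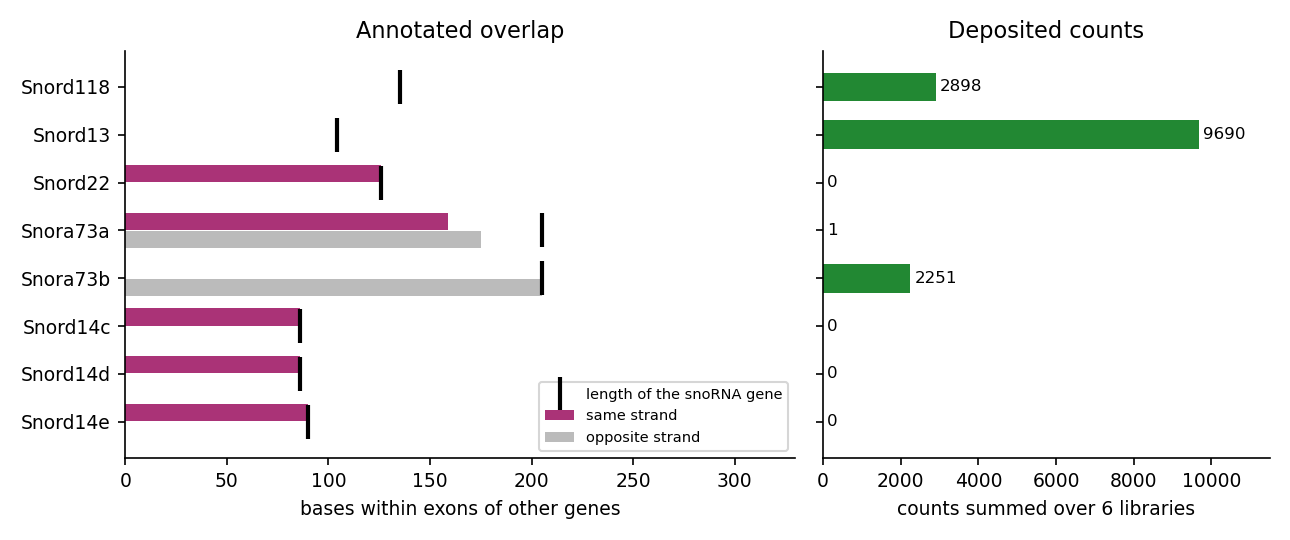
Annotated overlap and counts of the 8 snoRNAs of pre-rRNA processing. Left, bases of each gene within exons of other genes on the same (purple) or the opposite strand (grey), with a black mark at the gene's length; right, counts summed over the 6 libraries. The 4 genes whose purple bar reaches the mark (Snord22, Snord14c, Snord14d and Snord14e) had 0 counts.

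Other snoRNA genes lying wholly within such exons were likewise uncounted. Apart from the 8, the annotation has 132 genes with a Snord or Snora number in their name, and 52 of them lie wholly within exons of another gene on the same strand. All 52 had 0 counts in all 6 libraries. Among the 66 without any overlap 20 were at 0, among the 12 that overlap in part on the same strand 8 were at 0, and both genes with overlap on the opposite strand only had counts. Over the 1499 other genes of the snoRNA biotype, predicted ones included, 150 of 150 lying wholly within such exons were at 0. In the remaining classes most genes were at 0 as well, namely 1111 of 1276 (87.1%) without overlap, 44 of 58 (75.9%) with overlap in part on the same strand and 10 of 15 (66.7%) with overlap on the opposite strand only. Partial overlap thus did not go with a higher share at 0 over all snoRNA genes. Snhg1 holds 7 further annotated snoRNA genes (Gm25855, Gm24453, Gm24452, Gm23246, Gm22744, Gm25894 and Gm22680) besides Snord22, each wholly within exons of the host, and these had 0 counts too. Snord14a, the U14 copy in the ribosomal protein gene Rps13, is covered in the same way and had 0 counts.

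HTSeq, with which the authors counted reads, can set aside a read that overlaps exons of more than 1 gene as ambiguous, and 20.4% to 24.0% of all records carried this label, depending on the library. A further 41.7% to 46.2% are labelled as aligned to more than 1 place. The files do not say which genes these records came from, and neither the HTSeq mode nor its strand setting is given in the sources used here. A count of 0 for Snord22 or a U14 copy therefore bounds the reads assigned to that gene (3 counts correspond to 12.3 to 18.1 TMM-normalized counts-per-million, CPM, depending on the library) and not the amount of the snoRNA in the cell.

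**Figure D2:**
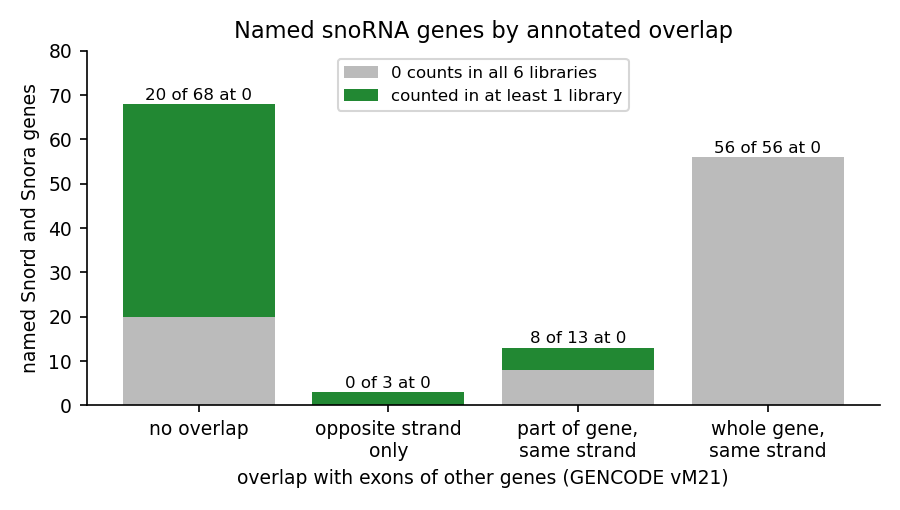
Named Snord and Snora genes, the 8 of pre-rRNA processing included, grouped by overlap with exons of other genes in GENCODE vM21 (x axis), with the number of genes on the y axis and the part at 0 counts in all 6 libraries in grey. All 56 genes lying wholly within same-strand exons of another gene were at 0, against 20 of the 68 genes without overlap.

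The share of all gene counts that fell on the 8 snoRNAs was 1.06% ± 0.106 (SD, n = 3) for WT. For knockout it was 1.07% ± 0.188 (SD, n = 3). The lowest share was 0.936% (95% Wilson confidence interval 0.892% to 0.984%) in knockout replicate 1 and the highest 1.29% (1.25% to 1.33%) in knockout replicate 3, so that both extremes lay within the same genotype. Replicate 3 had the highest share in WT as well, at 1.18%. Copies made by PCR are not independent molecules, and the intervals account for the error of counting alone. In these bulk samples fewer cells of a type and less RNA per cell cannot be told apart.

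Among the 3 counted snoRNAs Snord13 had the most counts, with 65.3% of those on the group. Levels are given as CPM normalized by the TMM method, and between genes they are compared only after division by gene length. Per base, Snord13 had 59.2 to 95.3 CPM over the 6 libraries, Snord118 10.8 to 30.9 and Snora73b 6.65 to 11.1. The range of Snord13 did not overlap the others. Snord118 and Snora73b overlapped slightly in range, but within each library Snord118 was higher per base (1.19 to 2.88 times, 6 of 6 libraries). Of the 106 snoRNA genes with at least 10 counts in at least 3 libraries, Snord13 ranked 20 by CPM per base, Snord118 ranked 45 and Snora73b ranked 62. These levels are of sequenced fragments that were assigned to the gene. Division by the full length does not allow for reads without a unique alignment. Snora73b is identical to Snora73a at 198 of its 205 bases, so its level per base and its rank may be too low in every library. The order of Snord118 and Snora73b is therefore one of assigned reads only.

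No difference between genotypes was detected for the counted snoRNAs in a test over the whole table. The 1391 genes with at least 10 counts in at least 3 libraries were tested together with the quasi-likelihood test of edgeR and adjusted by Benjamini-Hochberg, and 0 of the 3 snoRNAs that passed this filter had an adjusted p under 0.05, against a background of 0% of all genes tested. At an unadjusted p under 0.05 the number was again 0 of 3, against a background of 5.18%, and DESeq2 gave 0 of 3 at either threshold, against backgrounds of 0% at an adjusted and 1.73% at an unadjusted p under 0.05. In 0 of 3 did the groups not overlap, against 8.05% of all genes tested. The fold changes were 0.38, -0.08 and 0.22 on the log2 scale for Snord118, Snord13 and Snora73b, beside a median of -0.0040 over all genes tested and 0.11 over the 103 other snoRNA genes tested.

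Snord118, the U8 snoRNA of large-subunit rRNA maturation, had 1464, 1758 and 2794 CPM in WT replicates 1, 2 and 3 and 1839, 1787 and 4168 in knockout replicates 1, 2 and 3. Replicate 3 was the highest library in each genotype, and the remaining 4 libraries lay between 1464 and 1839. The means were 2005 ± 699 (SD, n = 3) for WT and 2598 ± 1360 (SD, n = 3) for knockout. The log2 fold change of 0.38 had a standard error of 0.31 and a 95% interval of -0.26 to 1.01, that is 0.836- to 2.02-fold (edgeR adjusted p = 0.98). Single libraries moved the value: without knockout replicate 3, the library with the highest total, the log2 fold change was -0.15, and without WT replicate 3 it was 0.70, with the adjusted p at 0.987 and 0.757 by the same edgeR test. Without replicate 3 of both genotypes it was 0.17. Gm24208, a predicted snoRNA gene that shares a stretch of 64 bases with Snord118 and was looked at for that reason, had 3, 3 and 5 counts for WT and 1, 1 and 19 in the knockout libraries. Its highest count was thus also in knockout replicate 3, but these counts are raw and that library had the highest total.

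Snord13, the U13 snoRNA of small-subunit rRNA maturation, had 8379, 7551 and 8382 CPM in WT and 6157, 6900 and 9911 in the knockout libraries. All 3 WT libraries lay within the range of the knockout libraries, which spread more widely. The means were 8104 ± 479 (SD, n = 3) and 7656 ± 1988 (SD, n = 3). The log2 fold change was -0.08 (standard error 0.23, 95% interval -0.55 to 0.39, that is 0.682- to 1.31-fold, edgeR adjusted p = 0.98). Without knockout replicate 1 it was 0.041 and without knockout replicate 3 it was -0.31, so its sign also depended on single libraries. Snord13 shared no stretch of 20 or more bases with an annotated transcript of another gene.

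Snora73b, the counted copy of U17, had 1364, 1956 and 1816 CPM in WT and 1508, 2277 and 2195 in the knockout libraries. In both genotypes replicate 1 was the lowest and replicate 2 the highest, and the groups overlapped. The means were 1712 ± 310 (SD, n = 3) and 1993 ± 423 (SD, n = 3), with a log2 fold change of 0.22 (standard error 0.25, 95% interval -0.30 to 0.74, that is 0.811- to 1.67-fold, edgeR adjusted p = 0.98). Of the counts on both U17 copies, Snora73a took 0.259% in WT replicate 2 and 0% in every other library. With 1 count in all, this share could not be compared between genotypes. The reads of Snora73b that were counted are those whose alignment was unique, so its count is uncertain to the extent that reads shared with Snora73a were discarded. Gm26448, a predicted snoRNA gene sharing up to 40 bases with the U17 copies, had 111, 127 and 148 raw counts for WT and 89, 115 and 204 in the knockout libraries. These are not scaled to the library totals.

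**Figure D3:**
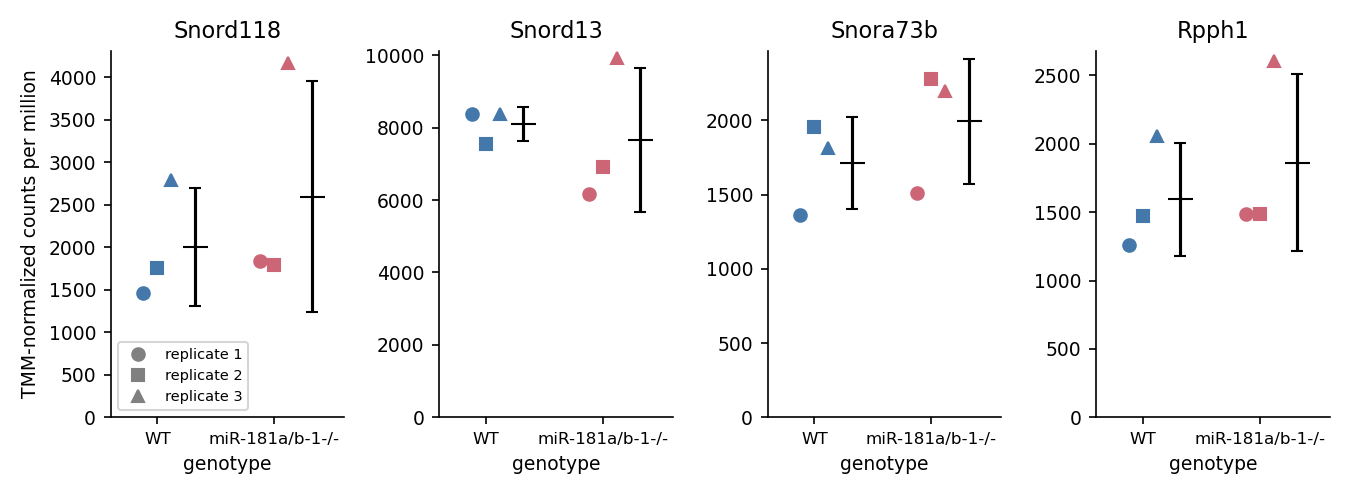
TMM-normalized CPM (y axis, from 0) of the 3 counted snoRNAs and of Rpph1 in WT and miR-181a/b-1-/- libraries (x axis); symbols mark replicates 1 to 3 and the black bars give the mean and SD of 3 libraries. Replicate 3 is highest in both genotypes for Snord118, Rpph1 and Snord13, for Snord13 in WT by a small margin only. The genotypes overlap in all 4 panels.

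The makeup of the group varied between libraries, and the genotypes overlapped for each of the 3 counted snoRNAs. Snord118 took 13.1% of the counts on the 8 snoRNAs in WT replicate 1 and 25.6% in knockout replicate 3, with 21.5% in WT replicate 3. Snord13 ranged from 60.9% in knockout replicate 3 to 74.8% in WT replicate 1. Snora73b ranged from 12.2% in WT replicate 1 to 20.8% in knockout replicate 2. The ratio of Snord13 to Snord118, each per base, was 7.43, 5.58 and 3.89 with WT genotype and 4.35, 5.01 and 3.09 in the knockout libraries. It was lowest in replicate 3 of each genotype, and the genotypes overlapped.

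Genes that act with these snoRNAs were read from lists chosen by function. The annotated genes of U3, the box C/D snoRNA that starts processing of the small-subunit rRNA, had 0 counts in all 6 libraries over 10 entries, which overlap pairwise on the same strand at 5 places. Rmrp, the RNA of the RNase MRP complex that cuts pre-rRNA, is likewise entered under 2 identifiers that overlap on the same strand and had 0 counts. Rpph1, the RNA of the related RNase P that processes tRNA precursors, had 1260, 1469 and 2055 CPM for WT and 1490, 1488 and 2609 in the knockout libraries. Replicate 3 was the highest in each genotype, as for Snord118 and Snord13. The log2 fold change of Rpph1 between genotypes was 0.23 (standard error 0.27, edgeR adjusted p = 0.98). It was -0.099 without knockout replicate 3, 0.46 without WT replicate 3 and 0.13 without replicate 3 of both genotypes.

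Of the 6 host and neighbouring genes, 2 passed the filter, Hspa8 and Rps13. Snhg1 had 19 counts over the 6 libraries, Snhg3 had 5 and Rcc1 had 6. Hspa8, host of the U14 copies, had 227 ± 67.4 (SD, n = 3) CPM in WT and 169 ± 56.5 (SD, n = 3) for knockout (log2 fold change -0.43, standard error 0.31, edgeR adjusted p = 0.98). The groups overlapped. Rps13 had 189, 274 and 284 CPM for WT and 289, 366 and 377 in the knockout libraries. The log2 fold change was 0.47 (standard error 0.27, edgeR adjusted p = 0.979). Its groups did not overlap, as in 8.05% of all genes tested. Tmem107, which lies next to Snord118 on its strand, had 0 counts.

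Protein components of the snoRNA particles and the processing machinery were represented by fragments of their mRNAs at low counts. Over all 91 entries of these lists, hosts, U3, RNase P and RNase MRP included, 12 passed the filter and 0 were lower and 0 higher in knockout at an adjusted p under 0.05 by edgeR or DESeq2. At an unadjusted p under 0.05 the numbers were again 0 and 0 with either tool, against backgrounds of 5.18% of all genes tested for edgeR and 1.73% for DESeq2, and the median log2 fold change of the 12 was 0.053. The box C/D core protein gene Nop58 was at -0.015 (standard error 0.34) and Dkc1, the pseudouridine synthase of the box H/ACA particle, at 0.18 (standard error 0.39). Of 52 pre-rRNA processing factors 7 passed the filter, 3 with a negative and 4 with a positive log2 fold change. Among them Wdr43, of the small-subunit processome, was at -0.56 (standard error 0.35), Xrn2, an exonuclease that trims pre-rRNA, at -0.35 (standard error 0.32), Mtrex, an exosome helicase, at -0.14 (standard error 0.37) and the nucleolar helicase Ddx21 at 0.11 (standard error 0.34). Of 12 snoRNA assembly factors 0 passed the filter.

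**Figure D4:**
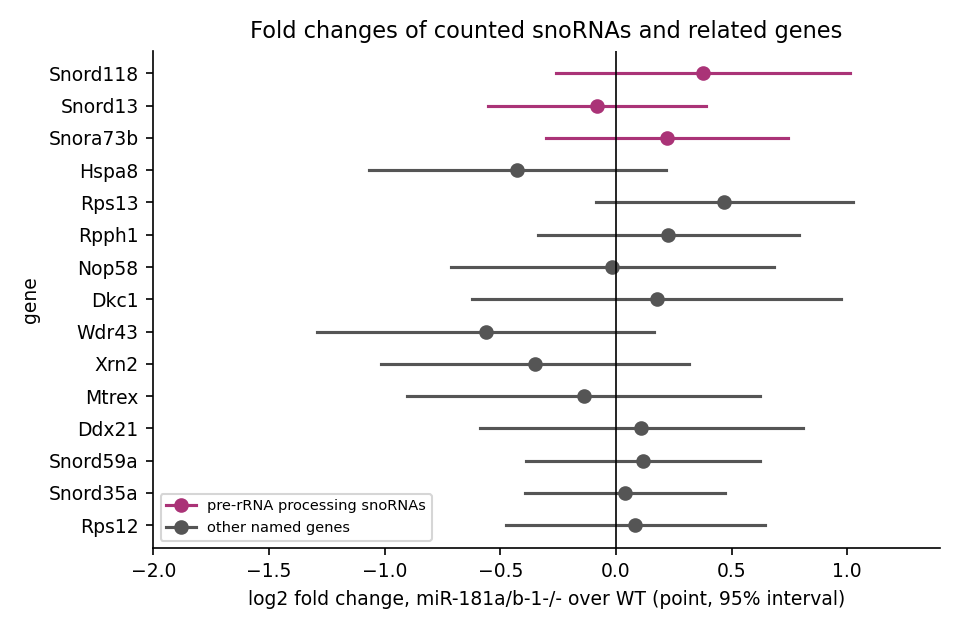
Log2 fold change of miR-181a/b-1-/- over WT (x axis; points with 95% intervals from edgeR) for the 3 counted snoRNAs of pre-rRNA processing (purple) and the other named genes (grey). Every interval crosses 0, from Wdr43 at -0.56 to Rps13 at 0.47.

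The genes whose profile over the 6 libraries lay nearest that of the 3 counted snoRNAs summed were Snord59a, Snord35a and Rps12. Snord13 held 65.3% of the counts on the group, so the summed profile is mostly that of Snord13. The measure was the root-mean-square difference of centred log2 CPM over 6 libraries, which was 0.068, 0.076 and 0.079 for them and 0.44 at the median of the 1388 genes compared. Snord59a and Snord35a are box C/D snoRNAs and Rps12 is a ribosomal protein gene. Snord59a ran from 3733 CPM in knockout replicate 1 to 6547 in knockout replicate 3. Snord35a ran from 13092 to 19375 and Rps12 from 235 to 390 in the same libraries. Their log2 fold changes between genotypes were 0.12, 0.039 and 0.084, each smaller than its standard error.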

How the data were processed

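Per the labels, reads were aligned to GRCm38.p6. The authors trimmed adapters (Flexbar), filtered out ribosomal RNA (Bowtie 2), aligned (STAR), counted (HTSeq) and deposited raw counts per gene for each library. A further table, which holds the authors' own fold changes and p-values beside normalized values, was not used. The annotation release is not given in the sources used here. Of 54547 identifiers, 53706 matched GENCODE vM21, 51550 with their version. Records assigned to no gene (75.7% to 80.3% of a library) stayed out of totals and tests. Totals of 168293 to 307840 counts limit the precision.

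Genes reaching 10 counts in 3 or more libraries were tested with edgeR 4.0.16 (TMM, quasi-likelihood test, genotype only, Benjamini-Hochberg adjustment). The test was also run on simulated counts of independent libraries, and its outcome there is not reported here. DESeq2 1.42.0 (R 4.3.3), other normalizations and filters, a replicate block and leaving out libraries were alternatives. The exact permutation test planned for the Snora73a share (SciPy 1.17.1) is not reported, since a single count leaves it 1 possible outcome. Intervals of a fold change are 95% t intervals from the test's standard error. Exon overlaps were computed from GENCODE vM21.

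The snoRNAs and lists were chosen with earlier results of these data known. Named were the 8 snoRNAs, host genes, U3, RNase P and RNase MRP RNAs, up to 4 genes of each other list with the smallest p among those tested, further snoRNAs of the host genes and the 3 nearest profiles. Snord14a, Gm24208, Gm26448 and Gm17300 were chosen after their values were seen. Within a genotype, replicate libraries differed by 2.07 to 4.20 times the degrees of freedom of a chi-square test over genes, which is more than counting noise. The methods call the replicates biological. The sequence of Snord13 is not reported here.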

Additional observations from a re-analysis of the deposited data

How the results depend on the processing

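The number of snoRNAs of pre-rRNA processing called lower or higher was 0 under each of the 14 other settings, at an adjusted and at an unadjusted p under 0.05. The background at an unadjusted p under 0.05 ran from 24 of 1391 genes (DESeq2) to 107 of 1336 (edgeR without knockout replicate 1), with 442 of 16588 without a filter. With so few snoRNAs tested, a number of 0 is near these shares. Of the 12 pathway genes 1, Rps13, was higher at an unadjusted p with the replicate block (edgeR adjusted p = 0.682), against 3.45% of all genes tested. The lowest adjusted p of a counted snoRNA was 0.672. Leaving out replicate 3 of both genotypes was chosen after seeing the data. It gave log2 fold changes of 0.17 for Snord118, -0.29 for Snord13 and 0.19 for Snora73b, -0.040 for Rps12, -0.11 for Snord59a, -0.097 for Snord35a and 0.16 for Nop58. The replicate numbers were not shown to pair the libraries, since the deviations of libraries with the same number correlated at 0.231, 0.081 and 0.182 over genes, although each library correlated best with its own number. With a replicate block the log2 fold changes were 0.32 for Snord118, -0.11 for Snord13 and 0.21 for Snora73b, with adjusted p of 0.785, 0.936 and 0.865 in edgeR, and 0 genes passed in all. Over all genes, 0 passed an adjusted p of 0.05 in edgeR and in DESeq2, against 72 and 24 at an unadjusted p, but 8 passed without a filter, 5 without knockout replicate 1, 4 without knockout replicate 3 and 14 without replicate 3 of both genotypes.

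Leaving out 1 library at a time gave log2 fold changes of -0.15 to 0.70 for Snord118, -0.31 to 0.041 for Snord13, 0.053 to 0.37 for Snora73b, -0.099 to 0.46 for Rpph1, -0.26 to 0.16 for Nop58, -0.29 to 0.41 for Dkc1, -0.15 to 0.44 for Ddx21, -0.17 to 0.26 for Snord59a, -0.14 to 0.15 for Snord35a, -0.15 to 0.22 for Rps12, -0.70 to -0.23 for Hspa8, 0.28 to 0.58 for Rps13, -0.75 to -0.29 for Wdr43 and -0.51 to -0.22 for Xrn2. Mtrex, at -0.33 to -0.034, passed the filter in only 3 of these 6 fits (without WT replicate 1, knockout replicate 1 or knockout replicate 2). Nop58 turned to 0.0022 with DESeq2 size factors and 0.017 with DESeq2. TMM over snoRNA genes shifted the median of all genes to -0.10 and turned Snord59a to -0.012, Snord35a to -0.072 and Rps12 to -0.043. The causes were not tested. The Snora73a share of U17 counts, a difference of -0.086 percentage points, was -0.13 to 0 when a library was left out. The Snord14e share of U14 counts could not be computed, since all U14 counts were 0.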

Other observations

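A term for the replicate number over both genotypes was tested after the values had been seen, in the edgeR fit that holds replicate number and genotype together. For Snord118 the edgeR adjusted p was 0.0619 over the 1391 genes, which does not pass 0.05. Of the 1391 genes 2 passed at an adjusted p under 0.05 and 169 at an unadjusted p under 0.05, against 0 and 88 for genotype in the same fit. The adjusted p was 0.149 for Rpph1, 0.401 for Snora73b and 0.657 for Snord13 by the same edgeR test. The labels do not say what a replicate number stands for.

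Among the 13 named snoRNA genes lying partly within same-strand exons of another gene, the counts on genes with free bases varied. Snord66, with 74 of its 75 bases free, had 1005 counts over the 6 libraries. Snora34, with 46 free bases like Snora73a, had 45 counts against 1. Snora19, Snora36b and Snora74a, with 64, 68 and 100 free bases, had 0 counts. These genes were looked at after their values had been seen.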
